A study of Mus musculus with 4 samples.

Results

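A high-fat diet (HFD) was compared with the control diet in sorted intestinal GFP-high cells of mice, which the labels call intestinal stem cells, across every gene with at least 20 counts in either library. That rule kept 10836 of the 38124 gene IDs in the tables, of which 18918 had a count in at least 1 of the 4 libraries of the series. Of the genes kept, 10747 matched a gene symbol and 10427 were annotated as protein coding. RNA sequencing of poly(A)-selected RNA gave 1 library for each diet and GFP fraction. All 4 groups were male C57BL/6 mice 71 weeks old, and each library came from 200K sorted cells pooled from 2 to 5 mice. The mice ate either the HFD or the control diet, whose libraries are titled WT with a diet labelled normal, and from each diet a GFP-high and a GFP-low fraction was sorted, the latter labelled progenitors. The sources used here do not give the gene that drives GFP, the composition of the diets or the time on them. Whether the 2 fractions of a diet share mice is not recorded in the labels, and the spread between the mice of a pool was not measured.

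Stem cells at the base of the intestinal crypt express the R-spondin receptor Lgr5 and renew the epithelium by dividing into progenitors that become absorptive enterocytes or secretory cells. Fatty acids that enter such cells can be burned in mitochondria and peroxisomes, packed into chylomicrons or turned into ketone bodies, and many genes of these routes are switched on by PPAR nuclear receptors, which bind fatty acids. Crypt cells also take part in defence of the gut: they make superoxide, nitric oxide and antibacterial lectins, and under interferon they present antigen on MHC class II molecules.

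The libraries held 6207080 counts (HFD) and 5201394 counts (control). Levels are given in CPM, the counts a gene would have in a scaled library of 1000000 counts, and a gene with 0 counts could be as high as 0.449 CPM (HFD) or 0.543 CPM (control), from an upper limit of 3 counts. Ratios of HFD over control are given as folds or on the log2 scale with an exact 95% interval for the ratio of Poisson counts, which covers counting error only. With 1 library a side there was no test and no replicate check, and a difference between the libraries cannot be told apart from a difference between pools of mice. A gene was counted as higher or lower when it differed at least 2-fold and its interval left out equality.

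Listed stem cell markers summed to 15009 CPM under HFD and 18491 CPM under control, against 3080.5 and 5043.6 CPM in GFP-low cells. Lgr5 was at 242 CPM under HFD and 241 CPM under control, against 12.5 and 12.7 CPM in GFP-low cells. Since the gene that drives GFP is not given, the sort itself may have set the level of Lgr5. Markers of other cells were read in both libraries: the 21 listed enterocyte markers summed to 2570 CPM under HFD and 2081 CPM under control, against 10685 and 6074 CPM in GFP-low. Goblet markers summed to 3500 and 3927.5 CPM, against 18772 and 42662 CPM in GFP-low. Paneth markers summed to 489 and 849 CPM, against 1234 and 2487 CPM in GFP-low. Of 25 leukocyte markers only 2 reached 20 counts, the whole list summed to 14.8 and 18.6 CPM, and the pan-leukocyte gene Ptprc and the macrophage receptor Csf1r had 0 counts in both libraries. Of 24 markers of stroma, vessels, muscle and red cells none reached 20 counts, with sums of 9.44 and 5.79 CPM, and the collagens Col1a1 and Col3a1 were at 0. In such bulk samples, fewer cells of a type and less RNA per cell cannot be told apart.

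Most genes were at nearly the same level in both diets. The median log2 ratio was 0.02, 89.6% of genes lay within 1.5-fold and 96.4% within 2-fold of equality. The rule counted 373 genes (3.44%), of which 160 were higher under HFD (1.48% of all genes of the comparison) and 213 were lower (1.97%). At least 4-fold differences were found for 32 genes that were higher and 49 that were lower. The genes counted higher together took 0.285% of the scaled counts under HFD and 0.0855% under control, and those counted lower took 1.32% and 3.23%. Another 19 genes differed at least 2-fold with an interval that held equality. At the edge of the filter, 12 of the 65 genes with a highest count of 20 differed at least 2-fold, as did 13 of the 68 genes with a highest count of 19, which stayed outside.

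**Figure D1:**
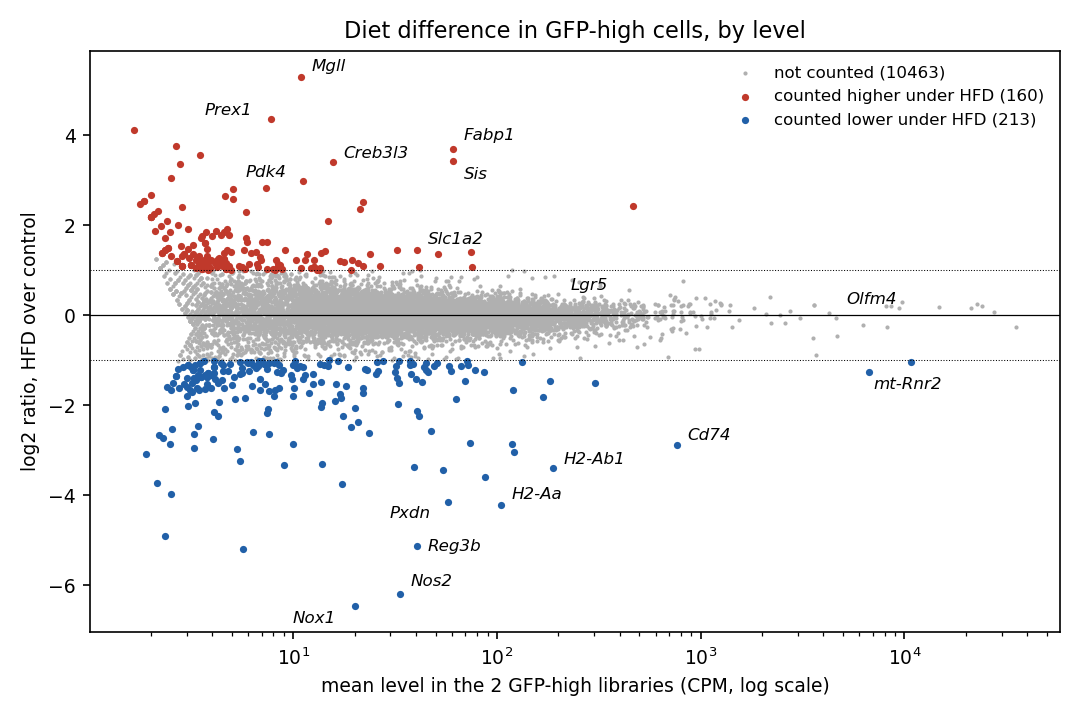
Log2 ratio of HFD over control in GFP-high cells (y axis) against the mean level of the 2 libraries in CPM on a log axis (x axis), 1 point per gene of the comparison. The 160 genes counted higher and the 213 counted lower are coloured, and most of the other genes form a band around 0 that narrows as the level grows.

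Of the genes with the clearest higher level at 10 CPM or more, several serve fat use and absorption. Mgll, which splits monoglycerides into fatty acid and glycerol, had 142 counts under HFD and 3 under control, a ratio of 39.2 (interval 13.1 to 192). Fabp1, a fatty acid carrier of the cytosol, had 757 and 48 counts, a 13.1-fold higher level (interval 9.74 to 17.9). Both genes were also counted higher under HFD in GFP-low cells, with log2 ratios of 2.01 and 2.92.

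Other enzymes and regulators of fat use were higher too. Pdk4, a kinase that shuts pyruvate dehydrogenase and so spares glucose, had 133 and 14 counts, 7.86-fold higher (interval 4.52 to 14.8). Creb3l3, a membrane-bound transcription factor of lipid metabolism, had 191 and 15 counts, 10.5-fold higher (interval 6.23 to 19.2). Acot1, which cleaves acyl-CoA in the cytosol, had 237 and 38 counts, 5.16-fold higher (interval 3.65 to 7.48). Acot1 has near-identical neighbours, so its reads may be shared with them.

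Brush border enzymes of the absorptive enterocyte stood beside them. Sis, the sucrase-isomaltase, had 746 counts under HFD and 57 under control, 10.8-fold higher (interval 8.27 to 14.4). Alpi, the intestinal alkaline phosphatase, had 249 and 36 counts, 5.72-fold higher (interval 4.02 to 8.36). Both are genes of GFP-low cells, where Sis was at 1998 and 456 CPM and Alpi at 859 and 245 CPM under HFD and control. The share of these values that comes from more differentiated cells among the sorted ones was not tested.

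The rule that ranked genes by their interval also named genes outside fat metabolism. Prex1, an activator of the GTPase Rac, had 99 and 4 counts, a ratio of 20.5 (interval 7.75 to 76.7). Rgs7bp, a partner of regulators of G protein signalling, had 86 and 10 counts, 7.12-fold higher (interval 3.69 to 15.4), and only 2 and 4 counts in GFP-low. Stox2, a winged-helix protein, had 160 and 31 counts, 4.27-fold higher (interval 2.89 to 6.50). Sfrp5, a secreted protein that binds Wnt ligands, was at 109 CPM under HFD and 40.9 CPM under control, 2.67-fold higher (interval 2.29 to 3.11), against 11.3 and 8.61 CPM in GFP-low. Serpine2, an inhibitor of serine proteases, had 37 counts under HFD and 0 under control, at least 10.2-fold higher when the control is set at its limit of 3 counts, and the exact interval, which also covers counting error in the HFD library, starts at 7.89-fold.

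**Figure D2:**
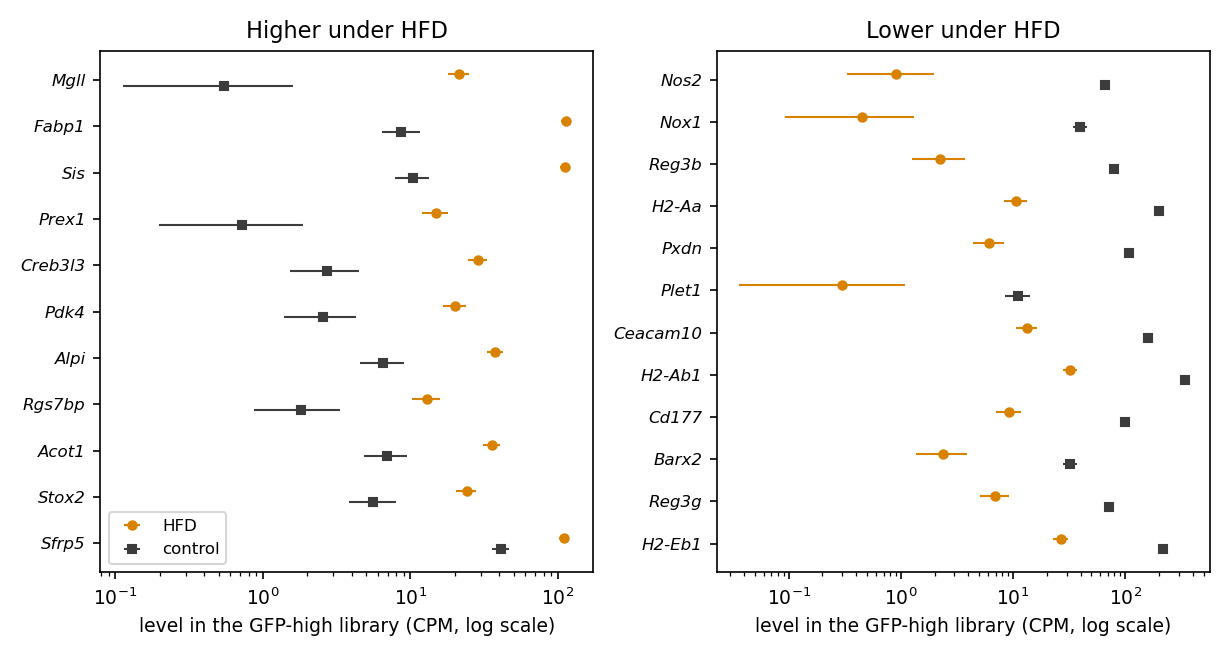
Levels in CPM on log axes of genes higher (left) and lower (right) under HFD, from those whose intervals lie farthest from equality among genes that reached 10 CPM. Circles are the HFD library and squares the control library, with exact 95% Poisson intervals as bars, and the intervals of the 2 libraries do not overlap for any gene shown.

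Among the genes that were lower, enzymes that make reactive molecules came first. Nos2, the inducible nitric oxide synthase, had 6 counts under HFD and 364 under control, 73.3-fold lower (interval 33.4 to 201). Nox1, an epithelial oxidase that makes superoxide, had 3 and 219 counts, a ratio of 88.2 in favour of control (interval 29.8 to 431). Its annotated span is shared with Xkrx on the same strand and with Cstf2 and Arl13a on the opposite one. Pxdn, a peroxidase secreted to the matrix, had 41 and 600 counts, 17.7-fold lower (interval 12.9 to 24.9).

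The rest of that group was lower to differing degrees. Duox2, a peroxide-producing oxidase of the apical membrane, had 121 and 715 counts, 7.14-fold lower (interval 5.88 to 8.73), and its maturation factor Duoxa2 had 10 and 39 counts, 4.71-fold lower (interval 2.31 to 10.6). Of the 17 listed superoxide, peroxide and nitric oxide enzymes, 13 reached 20 counts, 7 were counted lower and 0 higher, and the median log2 ratio was -1.21 beside 0.02 over all genes. The other 2 counted lower were Cyba and Noxa1, subunits that work with Nox1, at log2 -1.22 and -1.21. The members that detoxify rather than make such molecules stood apart: Sod1, Sod2 and Cat were at log2 0.17, 0.29 and 0.45.

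Antibacterial proteins were lower as well. Reg3b, a secreted lectin that kills bacteria, had 15 counts under HFD and 437 under control, 35.2-fold lower (interval 21.1 to 63.4). Its relative Reg3g had 46 and 393 counts, 10.3-fold lower (interval 7.59 to 14.3). Lcn2, which traps bacterial iron carriers, had 1 count under HFD and 25 under control (ratio 30.2 in favour of control, counting interval 4.94 to 1240). Pla2g2a, a secreted phospholipase of Paneth cells, was at log2 -2.25, whereas Reg1 and Reg4 were at log2 -0.03 and 0.45, so that 4 of the 9 members of this list that reached 20 counts were counted lower and 0 higher.

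MHC class II genes, which present peptides to helper T cells, were all lower where they could be measured. All 7 members that reached 20 counts, of 10 listed, were counted lower, with a median log2 ratio of -2.88 and a range from -4.22 to -2.14. H2-Aa had 71 counts under HFD and 1098 under control, 18.7-fold lower (interval 14.7 to 24.1). H2-Ab1 had 216 and 1894 counts, 10.6-fold lower (interval 9.20 to 12.3), and H2-Eb1 had 177 and 1196 counts, 8.16-fold lower (interval 6.97 to 9.62). These 3 encode the chains that hold the peptide.

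The genes that serve those chains were lower too. Cd74, the invariant chain that guides them through the cell, was at 183 CPM under HFD and 1341 CPM under control, 7.34-fold lower (interval 6.91 to 7.81). H2-DMa and H2-DMb1, the subunits of the peptide exchanger, were at log2 -2.14 and -2.37. Ciita, the master coactivator of the pathway, had 97 and 377 counts, 4.70-fold lower (interval 3.75 to 5.93). Leukocytes also carry these genes; the 25 leukocyte markers summed to 14.8 CPM under HFD and 18.6 CPM under control, with Itgam at 67 and 60 counts and Ptprc and Csf1r at 0, and their part in the difference was not tested. In GFP-low cells all 7 genes were counted lower too, with a median log2 ratio of -3.54.

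Class II promoters carry a short conserved stretch with a CCAAT box, written ATTGG on the other strand. Promoters were taken from RefSeq (GRCm38.p6) for the 4 class II members that matched, and all 4 held ATTGG on either strand, beside 43.5% of the 8506 matched genes of the comparison. The windows searched ran from 250 bases before to 50 after the gene start. The 250 bases before the start are shown for 3 of them, 5′ to 3′ on the gene's strand, with ATTGG or its reverse CCAAT in capitals, because these genes lie in 1 region and were lower together. A match is a string of letters and not a measured binding site.
H2-Aa, chr17:34287824-34288073, minus strand: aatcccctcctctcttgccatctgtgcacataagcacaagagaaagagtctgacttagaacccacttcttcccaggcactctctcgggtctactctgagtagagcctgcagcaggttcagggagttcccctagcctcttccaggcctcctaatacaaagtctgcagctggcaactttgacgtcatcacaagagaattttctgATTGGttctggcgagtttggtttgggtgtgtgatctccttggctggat
H2-Eb1, chr17:34305617-34305866, plus strand: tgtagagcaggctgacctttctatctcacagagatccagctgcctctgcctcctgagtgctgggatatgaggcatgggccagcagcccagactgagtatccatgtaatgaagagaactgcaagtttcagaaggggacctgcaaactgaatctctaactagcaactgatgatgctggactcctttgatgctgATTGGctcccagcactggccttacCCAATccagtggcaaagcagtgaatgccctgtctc
H2-DMb1, chr17:34152941-34153190, plus strand: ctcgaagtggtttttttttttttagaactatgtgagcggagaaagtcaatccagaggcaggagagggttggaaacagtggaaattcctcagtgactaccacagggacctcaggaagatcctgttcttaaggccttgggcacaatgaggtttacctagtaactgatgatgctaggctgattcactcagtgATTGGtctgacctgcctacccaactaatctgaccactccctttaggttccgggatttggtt
The match began 48 bases before the start in H2-Aa, 59 and 35 bases before it in H2-Eb1 and 61 bases before it in H2-DMb1.

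MHC class I genes, which present peptides to killer T cells, were lower by less. Of 17 listed, 16 reached 20 counts, 4 were counted lower and 0 higher, and the median log2 ratio was -0.70. Nlrc5, the coactivator of class I genes, had 17 counts under HFD and 139 under control, 9.88-fold lower (interval 5.95 to 17.4). Psmb8 and Psmb9, subunits of the immunoproteasome, were at log2 -1.86 and -1.14, and the peptide transporter Tap1 was at -1.31. The class I chains H2-K1 and H2-D1 were at -0.96 and -0.87 and were not counted, and B2m, their shared light chain, was at -0.70. The intervals of 14 of the 16 lay below equality.

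Genes induced by interferon were lower in part. Of 37 listed, 19 reached 20 counts, 6 were counted lower and 0 higher, and the median log2 ratio was -0.65. The interferon-induced GTPases Igtp, Irgm2 and Gbp7 were at log2 -1.79, -1.91 and -1.67. Oasl2 was at -1.58 and Parp14 at -1.02, while Iigp1 had 2 and 22 counts (log2 -3.73, interval -6.87 to -1.71). The regulator Irf1 was at -0.64 and Ifit2 at 0.73, neither of them counted.

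The strings that interferon factors bind were set beside these genes. TTCNNNGAA (the GAS element, read on both strands, N being any base) occurred in 9 of the 15 interferon list members with a promoter window, in 26 of the 140 genes counted lower (18.6%), in 5 of the 121 counted higher (4.13%) and in 8.23% of all. An interferon-stimulated element, GAAA copied after any 2 bases, occurred in 7 of the 15 members and in 3.47% of all. Among counted genes it occurred in 7 of the 140 lower (5%) and in 3 of the 121 higher (2.48%), both near the share of all. The 2 strings may overlap in a window. They describe the letters of the windows only.

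Some genes of the response to microbes were lower. Of the 15 members of the cytokine and NF-kB list with 20 counts, 4 were counted lower and 0 higher, with a median log2 ratio of -0.55. Tlr2, a receptor for bacterial lipoproteins, was 3.06-fold lower (interval 1.95 to 4.93). Socs3, a brake on cytokine signalling, was 2.16-fold lower (interval 1.46 to 3.23), and Stat3, the transcription factor it restrains, was at log2 -1.07. Pigr, the receptor that carries IgA across the epithelium, was at 3913 CPM under HFD and 5399 CPM under control and was not counted.

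The remaining genes ranked lower by interval were of varied kinds, and Steap4 was named because it had 0 counts under HFD. Ceacam10, a secreted member of the carcinoembryonic antigen family, had 89 counts under HFD and 890 under control, 12.1-fold lower (interval 9.71 to 15.2). Cd177, a surface protein, had 61 and 549 counts, 10.9-fold lower (interval 8.34 to 14.4). Barx2, a homeobox factor, had 16 and 179 counts, 13.5-fold lower (interval 8.10 to 24.2). Plet1, a surface protein of epithelia, had 2 and 61 counts, a ratio of 36.9 in favour of control (counting interval 9.77 to 311). Steap4, a metalloreductase, had 0 counts under HFD and 21 under control, at least 8.46-fold lower when HFD is set at its limit of 3 counts, and its exact interval starts at 6.29-fold.

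Several of the genes that were lower are neighbours. Among the genes of the comparison, 5 runs of at least 3 adjacent genes were counted in the same direction, and all 5 were lower. On GRCm38 with GENCODE release M21, chr17:34119541-34201454 held H2-DMa, H2-DMb1, Psmb9, Tap1 and Psmb8, chr17:34257689-34369495 held H2-Ab1, H2-Aa, H2-Eb1 and Btnl2, and chr17:35379617-35443773 held H2-Q4, H2-Q5, H2-Q6 and H2-Q7. The H2-Q genes are nearly identical to each other, so their counts are uncertain. On chr11:58187739-58222782 the run was Gm12250, Igtp and Irgm2, the last 2 overlapping on the same strand, and on chr13:23561534-23582735 it was the histone genes Hist1h3e, Hist1h2bg and Hist1h4d.

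The plot of gene lists sets these groups beside those of fat metabolism. The PPAR target list, 32 genes of 38 listed with 20 counts, had 9 members counted higher and 1 lower and a median log2 ratio of 0.75. Besides the genes above, Angptl4, an inhibitor of lipoprotein lipase, had 139 and 43 counts (2.68-fold higher, interval 1.89 to 3.86). Fabp2, the intestinal fatty acid carrier, had 686 and 269 counts (2.11-fold higher, interval 1.83 to 2.44), and Me1, which makes NADPH for lipid synthesis, was 3.09-fold higher (interval 1.84 to 5.44). The member counted lower was Vnn1, a pantetheinase, with 50 and 148 counts (3.58-fold lower, interval 2.58 to 5.03), while in GFP-low it had 76 and 64 counts.

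**Figure D3:**
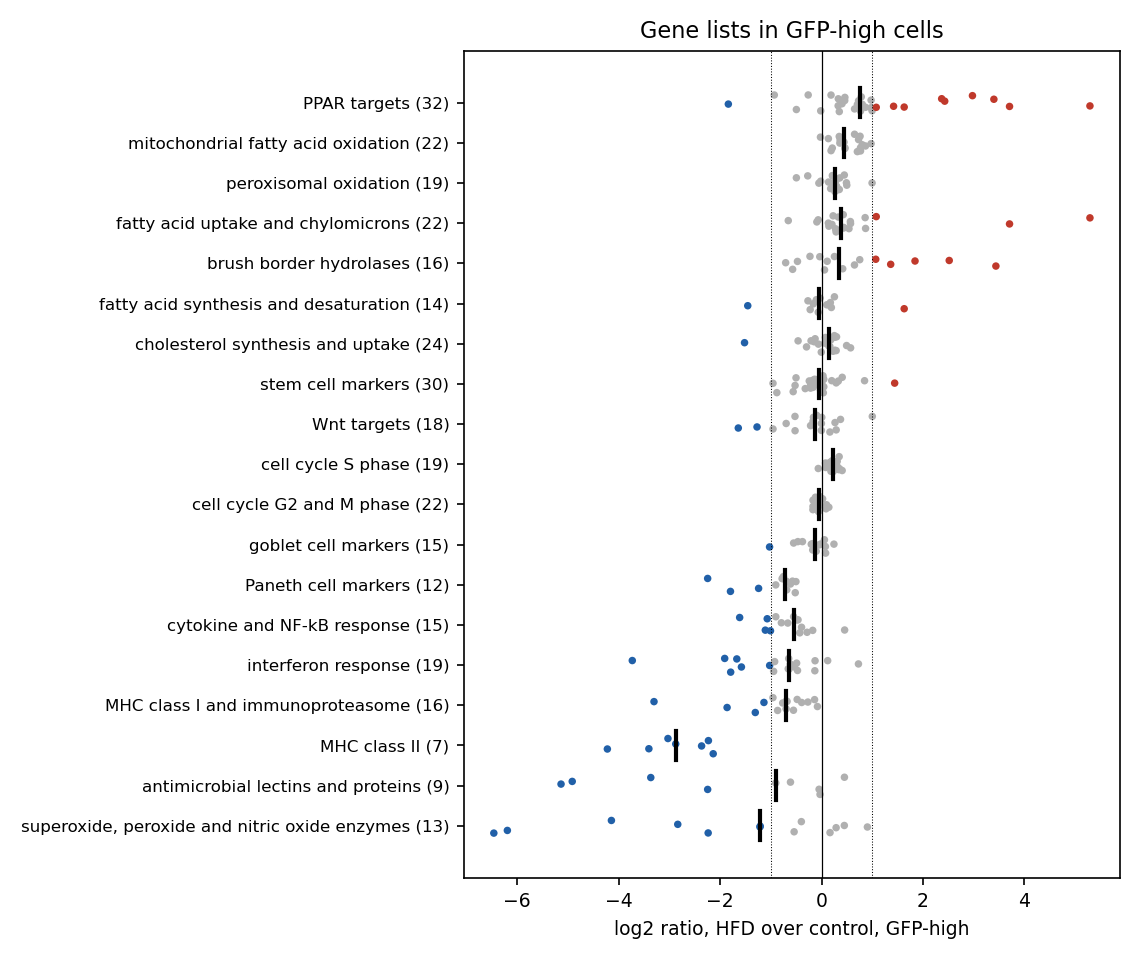
Log2 ratio of HFD over control in GFP-high cells (x axis) of the members with at least 20 counts of 19 gene lists (y axis, number of members in brackets). Each point is a gene, coloured when counted, black bars are list medians and dotted lines mark 2-fold; the MHC class II median is -2.88 and that of PPAR targets 0.75.

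Genes of mitochondrial fatty acid oxidation were mostly higher, by small amounts. None of the 22 members with 20 counts was counted in either direction, beside 3.44% over all genes. The median log2 ratio was 0.45, the range was -0.02 to 0.98 and the intervals of 18 lay above equality. Cpt1a, the gate for fatty acids into mitochondria, was at 316 CPM under HFD and 191 CPM under control (log2 0.73, interval 0.62 to 0.84). Acadvl, the first dehydrogenase for very long chains, was at 180 and 91.6 CPM, 1.97-fold higher (interval 1.77 to 2.19), just inside the limit. This list shares 11 members with the PPAR targets, so the lists are not separate observations. In GFP-low cells its median was 0.64.

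Genes of peroxisomal oxidation and fat absorption were less uniform. Of 19 peroxisomal members none was counted, beside 3.44% over all genes. Their median was 0.26, with Ech1, an isomerase of fatty acid breakdown, highest at 1.99-fold (interval 1.78 to 2.23). Of 22 genes of fatty acid uptake and chylomicrons, 3 were counted higher, Mgll, Fabp1 and Fabp2, and the median was 0.38. Apoa1, an apolipoprotein of the same list, was at 15.7 CPM under HFD and 24.8 CPM under control. The fatty acid transporter Cd36 had 2 and 4 counts and was below the filter.

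The receptors themselves differed by less than 2-fold. Ppara had 178 and 112 counts (log2 0.40, interval 0.05 to 0.75), Ppard had 1079 and 860 (log2 0.05, interval -0.08 to 0.19) and Pparg had 52 and 29 (log2 0.57, interval -0.11 to 1.28). None of the 13 receptors and coactivators with 20 counts was counted, beside 3.44% over all genes.

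PPAR receptors bind repeats of AGGTCA together with RXR. The string AGGTCA occurred on either strand in 7 of the 27 PPAR target members with a window, in 17 of the 121 genes counted higher (14.0%), in 32 of the 140 counted lower (22.9%) and in 14.5% of all. The full repeat, AGGTCA copied after any single base, occurred in 3 genes of the comparison and in 0 of the genes counted in either direction. Fabp1 is shown, since it was the fatty acid carrier with the largest difference, with AGGTCA or its reverse TGACCT in capitals.
Fabp1, chr6:71199629-71199878, plus strand: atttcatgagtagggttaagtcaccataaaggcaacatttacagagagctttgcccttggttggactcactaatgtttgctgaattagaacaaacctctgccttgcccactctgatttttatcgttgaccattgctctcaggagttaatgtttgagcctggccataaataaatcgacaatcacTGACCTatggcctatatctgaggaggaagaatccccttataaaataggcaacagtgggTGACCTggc
Its matches began 67 and 9 bases before the start.

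Fat and sterol synthesis showed no shared direction. Of 14 genes of fatty acid synthesis and desaturation, Me1 was counted higher and Scd2, a desaturase, lower by 2.74-fold (interval 2.36 to 3.20), with a median log2 ratio of -0.05. The 24 cholesterol genes had a median of 0.14.

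Enterocyte markers split. Of 17 with 20 counts, 6 were counted higher and 0 lower, among them Sis, Alpi, Fabp1, Fabp2 and the retinol carrier Rbp2 (log2 1.05). Vil1, a protein of the microvillus core present across enterocytes, was at 390 CPM under HFD and 375 CPM under control. The aminopeptidase Anpep was at log2 -0.48 and the median of the list was 0.49. Among brush border hydrolases 5 of 16 were counted higher, with 7 members shared between these lists. The retinoid list, which Rbp2 also belongs to, had 3 of 10 members counted higher, the others being the carrier Rbp7 and the retinal oxidising enzyme Aldh1a1.

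Stem cell markers were close to level. Of 32 listed, 30 reached 20 counts, 1 was counted higher and 0 lower, beside 1.48% and 1.97% over all genes. Their median log2 ratio was -0.05. Lgr5 had 1616 counts under HFD and 1334 under control, a log2 ratio of 0.00 with an interval of -0.10 to 0.11. Ascl2 and Smoc2, markers of the crypt base, were at log2 0.29 and 0.20. Olfm4, a secreted stem cell marker, was at 5791 and 6742 CPM (log2 -0.22), and Axin2, a Wnt feedback gene, was also at -0.22.

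The member counted higher was Slc1a2, a glutamate transporter, with 397 and 121 counts, 2.72-fold higher (interval 2.21 to 3.36). At the other end, Tnfrsf19, a receptor and Wnt target, was 1.94-fold lower (interval 1.61 to 2.35). Clca3b, a secreted protein of the calcium-activated chloride channel regulator family, was at 2602 CPM under HFD and 4796 CPM under control (1.84-fold lower). Of 18 Wnt targets, 9 of them also stem cell markers, 2 were counted lower and none higher, beside 1.97% and 1.48% over all genes. The 2 counted were Lef1, a partner of beta-catenin, with 12 and 31 counts, and Nkd1, a feedback inhibitor, 2.42-fold lower (interval 1.58 to 3.76).

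Notch genes and the cell cycle were not counted in either direction. Among 14 Notch members the ligand Jag1 had 92 and 115 counts (log2 -0.59), Jag2 had 20 and 12 (log2 0.46, interval -0.64 to 1.63) and the receptor Notch1 was at log2 -0.14. Mki67, a marker of cycling cells, was at 1134 and 1178 CPM. The 19 S phase genes had a median log2 ratio of 0.23 and the 22 genes of G2 and M phase one of -0.05. None of either list was counted, beside 3.44% over all genes.

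Secretory markers differed by lineage. All 12 Paneth markers with 20 counts were below equality in ratio (range -2.25 to -0.51), 3 of them counted lower, Pla2g2a, Mptx2 and the protease Mmp7, and the listed Paneth genes summed to 489 CPM under HFD and 849 CPM under control. Lyz1, the lysozyme of Paneth cells, was at 231 and 372 CPM. The goblet list had a median of -0.13 with 1 of 15 counted lower (Ccl6), beside 1.97% over all genes. In GFP-low cells 9 of the 15 were counted lower, beside 3.05% over all genes there, and the median was -1.11. Enteroendocrine markers summed to 122 and 86.5 CPM, and of 9 with 20 counts Gfra3 was counted higher and Sct lower. The part of Paneth cells in the lower antibacterial genes was not tested.

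Genes of mitochondria and of translation had medians slightly above equality. The shares counted higher were 1.33% (nuclear respiratory chain), 1.35% (mitochondrial ribosomal proteins) and 0% (cytosolic ribosomal proteins), beside 1.48% over all genes. All 12 messages encoded in the mitochondrial genome had intervals above equality, with log2 ratios of 0.08 to 0.37, and they took 17.1% of counts under HFD and 14.9% under control. The nuclear respiratory chain list had a median of 0.20 with 1 of 75 counted higher (Cox6b2), and cytosolic ribosomal proteins had a median of 0.21 with 0 of 67 counted, 37 intervals above equality and 2 below. Of 74 mitochondrial ribosomal proteins Mrpl46 alone was counted, higher at log2 1.10. The mitochondrial ribosomal RNAs went the other way: mt-Rnr1 was at 3917 CPM under HFD and 9430 CPM under control, and mt-Rnr2 at 7026 and 14465 CPM.

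Those ribosomal RNAs were lower along with other RNAs that lack a long poly(A) tail, a group set after its values were seen. Rpph1, the RNA of RNase P, had 190 and 1148 counts, 7.30-fold lower. Rn7sk, which restrains transcription elongation, had 498 and 1453 counts, and Rmrp, the RNA of RNase MRP, had 384 and 1004. Of 21 histone genes with symbols that start with Hist, 8 were counted lower and 1 higher, with a median log2 ratio of -0.70 (GFP-low -0.28). Poly(A) selection acts on such RNAs, and its part in their difference was not tested. Without this group 159 genes were counted higher and 200 lower.

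The difference in GFP-high cells was set beside the same difference in GFP-low cells, which used other libraries. There 515 of 10564 genes were counted (4.88%), 193 of them higher (1.83%) and 322 lower (3.05%). Of the 160 genes counted higher in GFP-high, 34 were counted higher in GFP-low, which is 21.2% of the first list and 17.6% of the second. Of the 213 counted lower, 96 were counted lower in GFP-low, which is 45.1% and 29.8%. None was counted in the opposite direction. The median GFP-low log2 ratio was 0.77 for the 93 higher genes and -1.24 for the 154 lower genes that reached 20 counts there. Across the 10226 genes that reached 20 counts in both comparisons, Pearson's r of the log2 ratios was 0.59, a description across genes, which are not independent replicates and share the scaling.

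**Figure D4:**
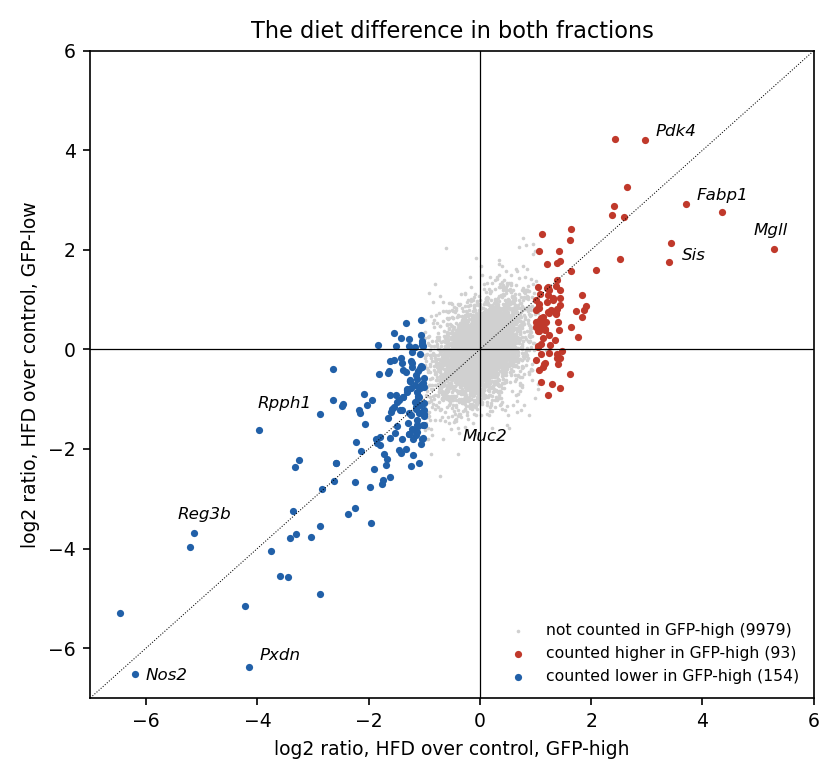
Log2 ratio of HFD over control in GFP-low cells (y axis) against that in GFP-high cells (x axis) for the 10226 genes with 20 counts in both comparisons, with the line of equal ratios dotted. The 93 genes higher and 154 lower in GFP-high are coloured, and the genes farthest from 0, such as Nos2 and Fabp1, lie on the same side in both fractions.

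Position between the fractions was read from the same libraries. It used the GFP-high counts that also decided which genes were counted, without an interval or a minimum count in GFP-low. Of the genes counted higher under HFD, 17 were at least 2-fold higher in GFP-high than in GFP-low in both diets (10.6%) and 30 at least 2-fold higher in GFP-low (18.8%). For the genes counted lower the numbers were 27 (12.7%) and 18 (8.45%), and over all genes 499 (4.61%) and 565 (5.21%). Among the 17 were Sfrp5, Slc1a2, Epha7, an ephrin receptor, and Etv4, an ETS transcription factor, the last 2 chosen after their values were seen. Epha7 had 43 and 3 counts (log2 3.57, interval 1.92 to 5.90), against 11 and 1 counts in GFP-low under HFD and control. Its place between the fractions under control thus rests on 3 counts against 1. Etv4 had 75 and 20 counts (log2 1.63, interval 0.91 to 2.42), against 20 and 6 in GFP-low.

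The spread between the libraries depended on the level of a gene. Below 5 CPM the spread of the log2 ratio was 0.75 (robust SD, 805 genes), of which counting alone gives 0.45, and 21.1% of genes were counted. This level held 95 of the 160 genes counted higher and 75 of the 213 counted lower, with a median log2 ratio of 0.14. Genes entered by 20 counts in either library, so at low levels the filter favours genes that differ. Its part in the spread and in the counted share was not tested. From 30 to 100 CPM the spread was 0.22 against 0.12 from counting (3965 genes, 1.13% counted), and at 300 CPM or more 0.22 against 0.04 (314 genes, 1.59% counted). At every level the spread was larger than counting gives, and the pools cannot be separated from the diets in that excess.

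**Figure D5:**
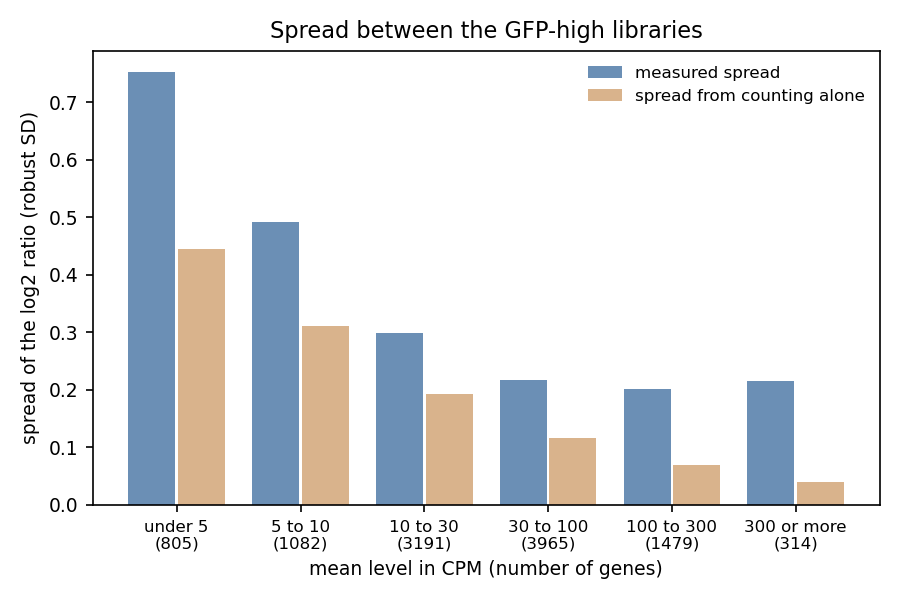
Spread of the log2 ratio of HFD over control between the GFP-high libraries (y axis, robust SD) by mean level in CPM (x axis, number of genes in brackets), beside the spread that counting alone gives. The measured spread falls from 0.75 below 5 CPM to 0.22 at 300 CPM or more and stays above the counting part, which falls to 0.04. Genes entered by 20 counts in either library, and the part of that filter in the spread below 5 CPM was not tested.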

How the data were processed

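RNA was measured by sequencing in 4 libraries of sorted cells, 1 for each diet and fraction. Strand-specific libraries were made from poly(A)-selected RNA with a dUTP kit, per the labels' protocols. The deposited values are raw counts of reads per gene. TopHat version 1.4.1, cutadapt and HTSeq, with builds GRCm38 and mm10, appear in the submitters' processing notes. The sources used here give neither annotation release nor strand setting, so overlapping or near-identical genes may share reads. Library sizes were scaled by TMM over the 4 libraries (edgeR version 4.0.16, R version 4.3.3). Ratios had no pseudocount, and intervals were exact Clopper-Pearson intervals turned into ratios (scipy version 1.17.1); reads carry no molecular identifiers. No p-value was computed. The script was checked on simulated data. The text names the 12 genes each way whose interval bound lies farthest from equality at 10 CPM or more, the 6 largest shifts each way in CPM, list ends, genes at 0, neighbours and genes fixed by name. Predicted genes and pseudogenes were passed over, save where a run of neighbours holds one, and a few genes are not reported here. The members, the 43 lists and the named genes were chosen with earlier results of these data known. Alternatives covered scaling, added CPM, filters and thresholds.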

Additional observations from a re-analysis of the deposited data

Results flagged for a closer look

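Genes that were counted in GFP-high and lay on the other side of equality in GFP-low, with both intervals off equality, numbered 4, and the difference between the fractions was not tested. Reep5, an endoplasmic reticulum shaping protein, was at a log2 ratio of 1.10 in GFP-high (44 and 17 counts) and -0.65 in GFP-low (63 and 88 counts). Rgs2, a regulator of G protein signalling, was at 1.22 in GFP-high (31 and 11 counts) and -0.92 in GFP-low (148 and 250 counts). The mitochondrial ribosomal RNAs were lower under HFD in GFP-high and above equality in GFP-low: mt-Rnr1 at -1.27 against 0.22 in GFP-low, and mt-Rnr2 at -1.04 against 0.10. These RNAs took 1.18% of counts in the HFD GFP-high library and 2.54% to 2.82% in the other 3 libraries.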

How the results depend on the processing

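Of the counts of genes higher and lower under HFD (160 and 213), those under other scalings differed little: 169 and 206 with library totals, 156 and 215 with DESeq2 size factors. Thinning to the shallowest library gave 136 and 213, of which 115 and 177 were the same genes. Stricter or looser rules changed the counts by construction: 63 and 121 with 2 CPM added, 34 and 81 at 100 counts in either library, 25 and 78 when the whole interval had to lie past 2-fold, 32 and 49 at 4-fold, and 357 lower genes with no filter on low counts (224 higher). Chosen after seeing the data, a mean of 10 CPM or more gave 36 and 91, and genes under 2-fold between the fractions gave 38 and 95. Of the named genes only Lgr5, level in both diets, changed sign under another scaling (log2 0.0037 to -0.0021 with DESeq2 size factors). The median of the superoxide list was -0.88 at 100 counts, and that of mitochondrial messages 0.22 with library totals. No paired analysis was possible because each group had 1 library, and none could be left out. Depth limits genes below about 5 CPM.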

Other observations

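Some groups outside the lists above held 1 or 2 genes that were counted, beside 3.44% over all genes. Of 15 circadian clock genes with 20 counts in GFP-high cells, the repressor Cry2 was counted higher (2.18-fold, interval 1.06 to 4.84) and the median log2 ratio was 0.30. Of 12 immediate early genes only Egr1 was counted, 2.32-fold lower (interval 1.53 to 3.57), with a median of -0.49. Irs1, an adaptor of the insulin receptor, had 8 counts under HFD and 27 under control, 4.08-fold lower (interval 1.80 to 10.4), and was the only counted gene among 23 of the insulin, IGF and mTOR list. Slc51a, a subunit of the basolateral bile acid exporter, was 3.76-fold higher (interval 1.93 to 8.01), and the esterase Ces1g 6.24-fold lower (interval 2.57 to 18.3). None of the 23 glutathione and Nrf2 genes, the 14 p53 targets or the 34 proteasome genes was counted, beside 3.44% over all genes.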
